A study of Mus musculus with 30 samples.

Results

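The mitochondrially encoded genes are the 37 rows of the count table whose mouse symbol starts with mt-, out of 43346 rows in all. They are 2 ribosomal RNAs (rRNAs), 13 protein-coding mRNAs and 22 transfer RNAs (tRNAs), and they were followed through 30 RNA-seq libraries of mouse stromal cells. Every library came from 50000 sorted GFP-negative cells. For the 23 exposed libraries, 100000 cells of a GFP-LUC labelled human circulating tumour cell (CTC) line were injected into the left cardiac ventricle of female NSG mice aged 6 to 8 weeks that carried slow-release estrogen pills, and the unlabelled cells of the resulting lesions were sorted. NSG mice are immunodeficient animals that lack T, B and NK cells but keep myeloid cells. The exposed libraries were 13 from bone (2 with the line Brx07, 4 with Brx50, 7 with Brx68), 7 from lung (2 Brx07, 1 Brx42, 3 Brx50, 1 Brx68) and 3 from brain, all with Brx50. Tumour-free mice gave 3 control libraries from bone, 2 from lung and 2 from brain, and the labels do not say whether those mice also carried pills. Several libraries of different tissues share a label code. The 2 exposed bone libraries with Brx07, labelled leg and skull, also share 1 code, 2.1, and were counted as 2 libraries. Nothing in the labels says whether libraries with a shared code came from 1 mouse, or whether replicates came from separate animals. The p-values thus measure only the spread between these libraries, which may be technical.

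Mitochondrial DNA is a small circle that is transcribed from both strands into long precursors. The tRNAs lie between most of the longer genes and are cut out of the precursors, which frees the rRNAs and mRNAs. The rRNAs build the mitochondrial ribosome, and the mRNAs encode core subunits of respiratory chain complexes I, III and IV and of the ATP synthase (complex V), whose other subunits are nuclear. Mitochondrial RNA is abundant in tissues with a high respiratory demand, brain among them. Stretches of mitochondrial DNA have also been copied into the nuclear chromosomes, where they lie as pseudogenes.

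Only part of the mitochondrial map was counted. The mRNAs held 3081568 counts over the 30 libraries, the rRNAs 16494 and the tRNAs 2201. Of the 13 mRNAs, 7 had counts in every library, and the other 6 were at 0 in all 30: mt-Co2 and mt-Co3 (complex IV), mt-Atp6 and mt-Atp8 (complex V), and mt-Nd3 and mt-Nd4l (complex I). These 6 lie next to each other on the circle, between 7013 and 10173 of chromosome M (GRCm38, GENCODE M21), with only tRNA genes between them. Levels are given as CPM, the count scaled to a library total of 1000000. A count of 0 over all 305212528 counts allows a level of up to 0.00983 CPM, taken as 3 counts and covering counting error only. Every respiring cell uses mt-Co2 and mt-Co3, and for these 6 genes the text says only that they are listed at 0.

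The sequences of the uncounted genes were compared with the annotated nuclear transcripts. The beginning of mt-Co2 (chrM:7013-7072, plus strand) is shown because the same 60 bases stand in the nuclear pseudogene Gm28661 on chromosome 1. The beginning of mt-Nd3 (chrM:9459-9501, plus strand) is shown with the same stretch of the pseudogene Gm28438 (chr1:24613077-24613119, minus strand), with the only differing base in capitals. It is the substitution T3C, counted from the first base of mt-Nd3, which is position 9461 of chromosome M. All sequences are those of the GENCODE M21 transcripts, written 5′ to 3′ as DNA.
mt-Co2: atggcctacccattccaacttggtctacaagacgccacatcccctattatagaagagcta
mt-Nd3: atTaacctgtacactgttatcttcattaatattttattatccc
Gm28438: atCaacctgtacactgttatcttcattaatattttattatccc

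Each member was cut into all its 50-base windows, and a window counted as shared if it stood, on either strand, in an annotated nuclear transcript. Of the 635 windows of mt-Co2, 635 were shared, or 100%. The shares were 99.9% in mt-Co3, 99.5% in mt-Atp6, 98.8% in mt-Nd4l and 97.99% in mt-Nd3, so 5 of the 6 mRNAs at 0 were almost wholly shared. The counted mRNAs had lower shares: 62.2% in mt-Nd4, 51.1% in mt-Co1, 8.19% in mt-Nd2, 7.61% in mt-Nd5 and 0% in mt-Nd1, mt-Nd6 and mt-Cytb. The exception was mt-Atp8, which was at 0 with 0% of its windows shared with an annotated transcript. Its place in the nuclear copy, between the pseudogenes Gm10925 (ending at 24614651) and Gm28661 (starting at 24614885), is not annotated as a transcript, and the genome sequence there was not analysed here.

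**Figure D1:**
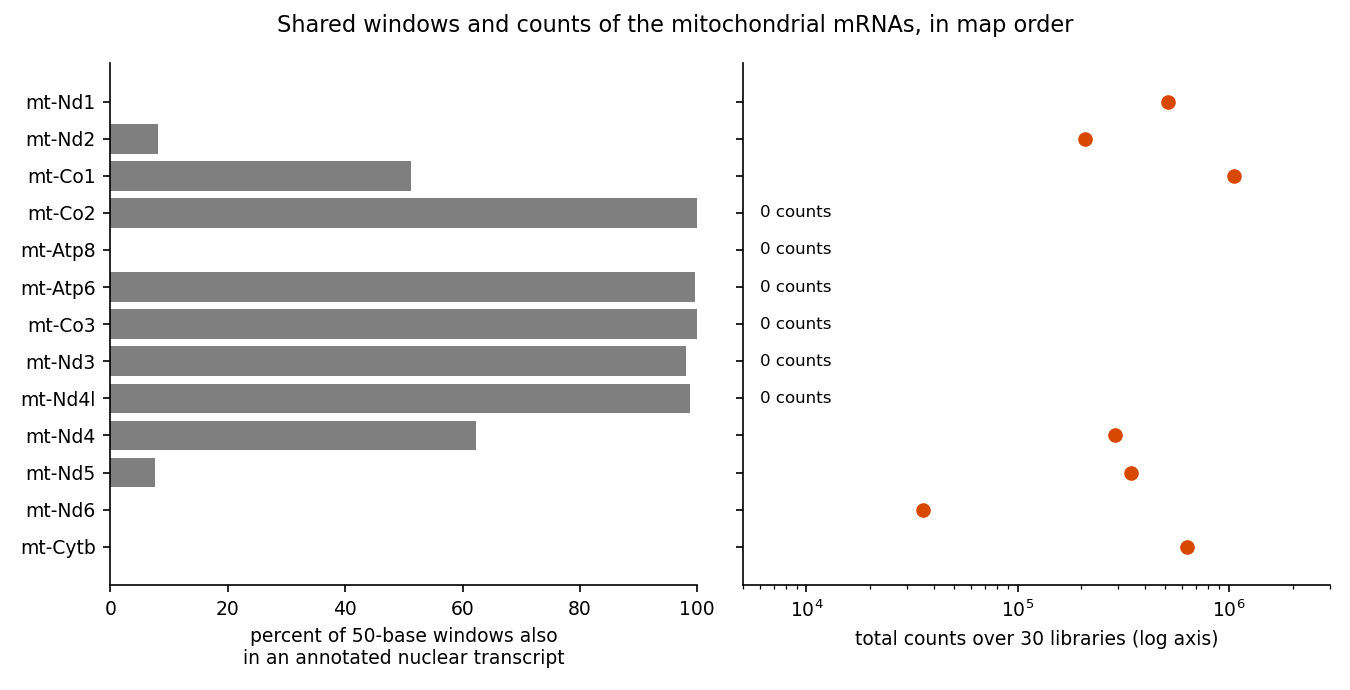
Percent of 50-base windows of each mitochondrial mRNA that also stand in an annotated nuclear transcript (left, bars) and total counts over 30 libraries on a log axis (right, points), in map order from top to bottom. The 6 mRNAs with 0 counts are neighbours on the map, and 5 of them have shares from 97.99% to 100%, while mt-Atp8 has 0%.

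The copies on chromosome 1 lie in a row on its minus strand, from 24611535 to 24616197, in the order of the mitochondrial map. Over their aligned lengths Gm28439 (mt-Nd4), Gm10222 (mt-Nd4l), Gm28437 (mt-Co3), Gm10925 (mt-Atp6) and Gm28661 (mt-Co2) were 100% identical to their mitochondrial counterparts, Gm28438 matched mt-Nd3 in 344 of 345 bases, and Gm29216 matched mt-Co1 at 98.8%. The copies that were 100% identical had 1 to 27 counts each over all 30 libraries, so they held few counts too. Other shared windows came from copies on chromosome 2, where Gm13340 matched mt-Co1 at 97.6%, Gm13341 matched mt-Co2 at 97.6% and Gm13339 matched mt-Nd2 at 96.7%, and from copies on chromosomes 4, 6, 11 and 13. Among all these copies Gm28438 had the most counts, 538 in 29 libraries, against 0 for mt-Nd3. Gm13340 had 344 counts in 29 libraries, Gm13341 158 in 25 libraries, against 0 for mt-Co2, and Gm4076, a copy of part of mt-Nd5, 154, of which 139 were in 1 library. The level of Gm28438 was 8.66 ± 1.51 CPM in the brain controls (SD, n = 2), 0.970 ± 0.242 in the bone controls (n = 3) and 0.965 ± 0.477 in the lung controls (n = 2). Per 100000 mt-mRNA counts of the same libraries, Gm28438 had 17.6 ± 1.99, 21.1 ± 6.08 and 21.8 ± 10.1 counts in these groups. The means were close to each other, but the spread was wide, and exposed bone ran from 0 to 62.5. The sources used here do not give how reads with more than 1 place in the genome were treated, and the part of that treatment in the zeros was not tested. For mt-Co1 and mt-Nd4 the same sharing means that a level per length is uncertain.

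Of the 22 tRNAs, 15 were at 0 in all 30 libraries. Mitochondrial tRNAs are 59 to 75 bases long. Of the other 7, mt-Tf, mt-Tl1, mt-Tm, mt-Tn and mt-Te had between 1 and 6 counts in all, which gives no level to compare. Only mt-Tc (the tRNA for cysteine, 1286 counts) and mt-Tp (proline, 898 counts) were counted beyond that, and both are encoded on the minus strand. Their genes, mt-Tc at chrM:5192-5257 and mt-Tp at chrM:15356-15422, are shown with the anticodon in capitals because these were the only tRNAs with a level to describe.
mt-Tc: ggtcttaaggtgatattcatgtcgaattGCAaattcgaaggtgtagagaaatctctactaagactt
mt-Tp: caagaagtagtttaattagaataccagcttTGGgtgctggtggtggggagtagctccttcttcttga

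After the filter on low counts, 11 members remained for testing in every comparison: both rRNAs, the 7 counted mRNAs, mt-Tc and mt-Tp. Tests are edgeR's quasi-likelihood F-test with Benjamini-Hochberg adjustment over all genes tested, and a gene is called at an adjusted p under 0.05. CPM compare 1 gene across libraries. Library totals ran from 4289012 to 15646947 counts, and between 14769 and 25688 genes had a count. Exposed bone replicates 7 and 12 (14769 and 16256 genes) and exposed brain replicate 1 (16344) had the fewest genes. The exposed bone libraries also differed in their marker genes. The bone markers Mpo, Elane and Bglap summed to 1333 to 1925 CPM in the controls, but 10 of the 13 exposed libraries lay below that range, down to 0.283 CPM, and 10 of 13 lay below the controls in the neutrophil markers (2.69 to 51623 CPM against 27150 to 37092). The bone sum was mostly Elane and Mpo, with means of 969 and 656 CPM in the controls and 321 and 229 in exposed bone. Bglap did not fall with them, at 3.92 ± 1.60 CPM in the controls (SD, n = 3) and 6.02 ± 6.10 in exposed bone (n = 13). The erythroid markers were below the controls in 11 of 13. Exposed bone replicate 12 had 2 of the 3 bone markers at 0. The lung markers Sftpc, Ager and Scgb1a1 summed to 1799 and 2269 CPM in the lung controls. In exposed lung they ran from 120 to 3849, with 3 of 7 libraries below the controls and 2 above. The brain markers P2ry12, Aqp4 and Snap25 summed to 1736 and 1376 CPM in the brain controls. All 3 exposed brain libraries lay below that, at 745 to 1146. The mean of Snap25 was lower there (476 against 1208 CPM), and those of P2ry12 (220 against 99.9) and Aqp4 (256 against 248) were not.

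In tumour-free mice the mitochondrial mRNAs were far higher in brain than in bone or lung. They made up 5.13% and 4.70% of all counts in the 2 brain controls, against 0.442%, 0.467% and 0.480% in bone and 0.430% and 0.450% in lung. The lowest brain control was thus well above the highest library of the other tissues, and the bone and lung controls lay within 0.430% to 0.480%. Per kilobase of the whole gene, the order in brain was mt-Nd1 with 10428 ± 1344 CPM per kb (SD, n = 2), mt-Cytb with 8820 ± 228, mt-Co1 with 8464 ± 162, mt-Nd2 with 5266 ± 695, mt-Nd4 with 3077 ± 24.8, mt-Nd5 with 2942 ± 148 and mt-Nd6 with 1775 ± 365. Per whole length, mt-Cytb and mt-Co1 were close to each other, as were mt-Nd4 and mt-Nd5. In bone, mt-Co1 led with 1072 ± 39.99 CPM per kb (n = 3), ahead of mt-Cytb with 910 ± 63.9 and mt-Nd1 with 639 ± 27.0, and mt-Nd6 was lowest with 107 ± 13.1. Lung had the same leading genes at 1028 ± 16.3, 868 ± 50.8 and 613 ± 6.397 CPM per kb (n = 2). The order turned when levels were set against only the windows not shared with a nuclear transcript, as mean CPM per 1000 such windows. In brain mt-Co1 then led with 17889, followed by mt-Nd1 with 10991, mt-Cytb with 9215, mt-Nd4 with 8447, mt-Nd2 with 6019, mt-Nd5 with 3272 and mt-Nd6 with 1960. In bone mt-Co1 had 2265, mt-Cytb 951, mt-Nd4 890 and mt-Nd1 674, so that mt-Nd4 moved ahead of mt-Nd1 there, and lung had the same order with 2174, 906, 846 and 646.

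Between lung and brain controls, 11 of the 11 members tested were called, all lower in lung, where 72% of all 18859 genes tested were called and 37.4% were lower in lung. Between bone and brain controls, 10 of 11 were called, 9 of them lower in bone, with 75.8% of all genes called and 38.9% lower in bone. With backgrounds of that height a call alone says little, and the sizes say more: the median log2 fold change of the 11 members was -3.92 for lung and -3.10 for bone, against -0.06 and -0.04 for all genes tested.

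Among the complex I subunits, mt-Nd2 differed most. It had 5976 and 4956 CPM in the brain controls, 209, 216 and 223 in bone and 229 and 243 in lung. The groups did not overlap, brain was 25.3-fold above bone by their means, and the log2 fold change of bone against brain was -4.52 (SE 0.15, edgeR adjusted p = 6.4e-11). Mt-Nd1 had 10889 and 9070 CPM in brain against 582 to 627 in bone and 582 to 591 in lung, a log2 fold change of -3.88 for bone (SE 0.15) and -3.92 for lung (SE 0.18) against brain. Mt-Nd6, the only mRNA on the minus strand, had 1055 and 787 CPM in brain, 47.7 to 60.7 in bone and 40.5 to 46.7 in lung. Its log2 fold changes against brain were -3.91 for bone (SE 0.16) and -4.23 for lung (SE 0.19). Mt-Nd4 and mt-Nd5 differed less, with -3.10 and -3.01 for bone and -3.15 and -3.17 for lung. By the means, mt-Nd4 was 9.49-fold higher in brain than in bone and 9.98-fold higher than in lung, and mt-Nd5 8.90-fold and 10.2-fold.

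The single counted subunits of complexes III and IV had smaller differences than mt-Nd1 and mt-Nd2. Mt-Cytb, the cytochrome b of complex III, was 9.69-fold higher in brain than in bone (log2 fold change of bone against brain -3.13, SE 0.15). Mt-Co1, the catalytic core of complex IV, had 13254 and 12900 CPM in brain, 1620 to 1727 in bone and 1571 to 1607 in lung, 7.90-fold over bone and 8.23-fold over lung. Both were called in both comparisons. The 2 counted tRNAs followed the mRNAs: mt-Tc had 55.3 and 19.7 CPM in brain against 0.648 to 1.31 in bone and 0.358 to 1.21 in lung, and mt-Tp had 9.57 and 11.7 CPM in brain against 0.847 to 2.39 in bone and 1.08 to 1.58 in lung. Both were called in both comparisons.

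**Figure D2:**
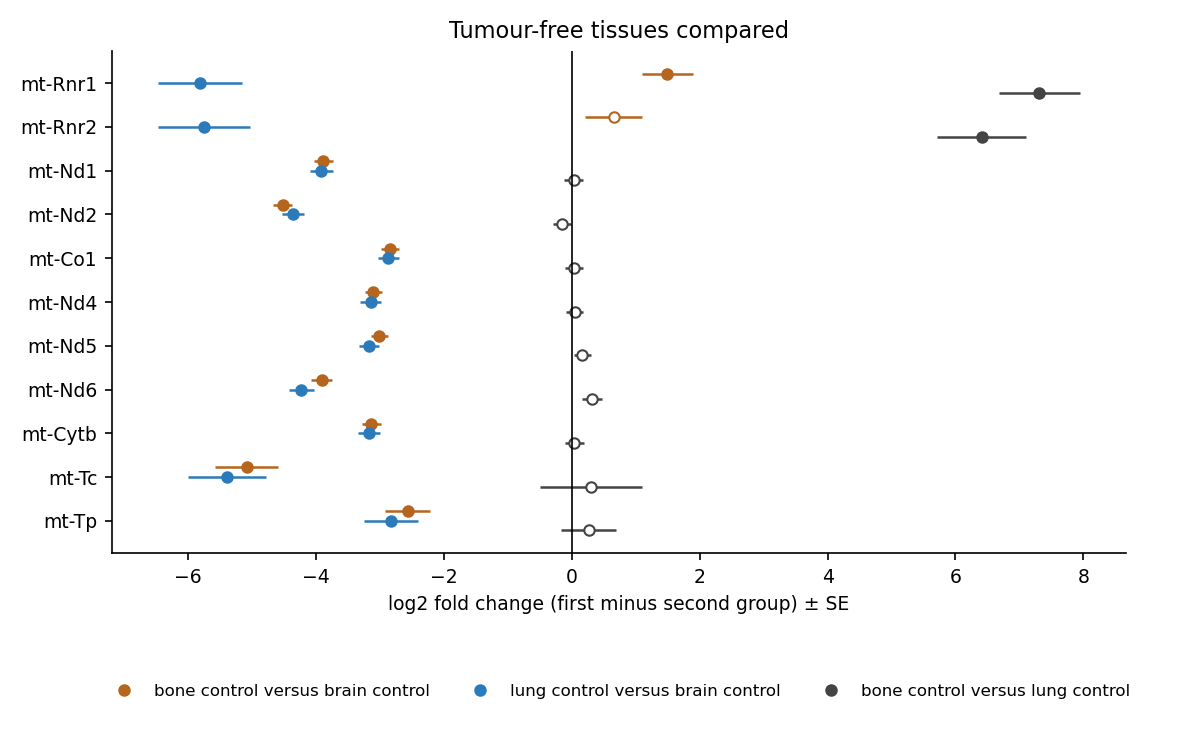
Log2 fold changes with standard errors (bars) of the 11 tested members between the control tissues, 3 bone, 2 lung and 2 brain libraries. Filled points are called at an adjusted p under 0.05 and open points are not. The mRNAs and tRNAs lie between -2.56 and -5.39 against brain and near 0 between bone and lung, where only the 2 rRNAs are called, at 7.31 and 6.41.

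Because the genes did not differ by 1 common factor, the make-up of the mitochondrial mRNA pool differed too. Complex I genes held 54.1% and 51.5% of the mt-mRNA counts in the brain controls, 41.7%, 42.1% and 41.5% in bone, and 41.3% and 41.4% in lung. There were 76.2 ± 8.38 counts of mt-Nd1 per 100 counts of mt-Co1 in brain (n = 2), 37.0 ± 1.501 in bone (n = 3) and 36.9 ± 0.199 in lung (n = 2). For mt-Nd2 the numbers were 41.8 ± 4.72, 13.1 ± 0.264 and 14.9 ± 0.372. Per 100 counts of mt-Nd5, mt-Nd6 had 17.1 ± 2.67 counts in brain, 9.17 ± 0.954 in bone and 8.25 ± 0.425 in lung. These shares are ratios within a library and do not depend on how the libraries are scaled. No test was run on them.

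**Figure D3:**
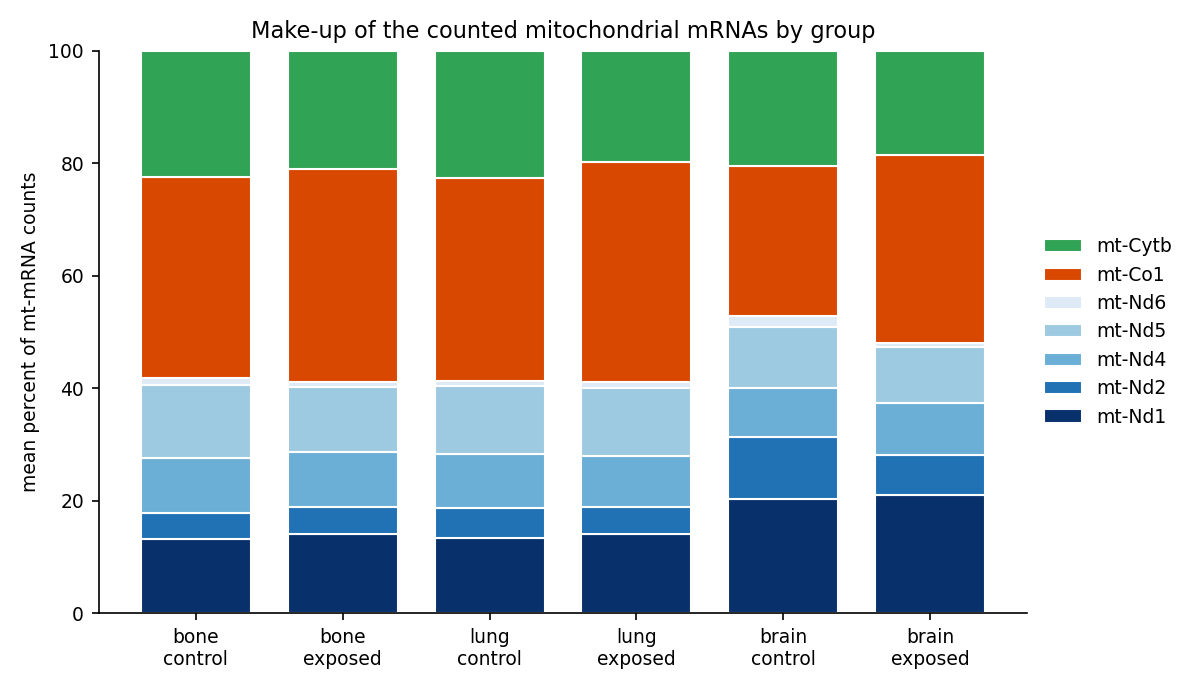
Mean percent of the mitochondrial mRNA counts held by each counted gene in the 6 groups (stacked bars, complex I genes in blue, mt-Co1 in orange, mt-Cytb in green). In brain controls mt-Nd1 and mt-Nd2 hold 20.3% and 11.1% and mt-Co1 26.65%, while bone and lung controls have 13.2% and 13.3% for mt-Nd1, 4.67% and 5.37% for mt-Nd2 and 35.8% and 36.1% for mt-Co1.

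Bone and lung controls differed in the rRNAs. Between them 2 of the 11 members were called, both higher in bone, with 44.8% of all genes called and 22.5% higher in bone. Mt-Rnr1, the 12S rRNA of the small mitoribosomal subunit, had 141, 205 and 237 CPM in bone and 0.986 and 1.40 in lung, which is 7.31 on the log2 scale (SE 0.63), with an edgeR adjusted p of 6.6e-05. Mt-Rnr2, the 16S rRNA of the large subunit, had 97.7, 143 and 155 CPM in bone and 1.25 and 1.77 in lung, which is 6.41 on the log2 scale (SE 0.70), with an adjusted p of 0.00040. The 7 mRNAs had log2 fold changes from -0.16 to 0.32 in the same comparison. The brain controls had 110 and 43.0 CPM of mt-Rnr1, between lung and bone, and 139 and 47.3 of mt-Rnr2, where brain and bone overlapped. Against brain, bone was higher in mt-Rnr1 (1.496, SE 0.40, edgeR adjusted p = 0.011), a call that was lost without the filter on low counts (adjusted p = 0.065) and with the replicate number as a block (adjusted p = 0.080). Mt-Rnr2 was not called (0.66, SE 0.44, adjusted p = 0.22) but was without brain control replicate 1 (adjusted p = 0.00079).

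The rRNA genes are shown by their beginnings, mt-Rnr1 at chrM:70-149 and mt-Rnr2 at chrM:1094-1173, both on the plus strand, because they are the only members called between bone and lung controls. None of the 906 windows of mt-Rnr1 and 1.04% of the windows of mt-Rnr2 were shared with a nuclear transcript.
mt-Rnr1: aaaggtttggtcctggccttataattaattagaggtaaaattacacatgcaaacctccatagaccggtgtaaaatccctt
mt-Rnr2: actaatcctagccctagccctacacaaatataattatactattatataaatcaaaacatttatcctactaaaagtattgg

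The rRNAs had far lower levels in exposed bone than in bone from tumour-free mice, but the main test did not call the difference. Over the 13 exposed libraries mt-Rnr1 ran from 0 to 18.8 CPM with a median of 2.54, and the lowest control was 141. Mt-Rnr2 ran from 0 to 33.7 CPM with a median of 3.03, against 97.7 in the lowest control. The groups did not overlap in either gene, where 0.202% of all 18278 genes tested had all exposed libraries below all controls and 0.0328% had all above. The control mean was 53.7-fold the exposed mean for mt-Rnr1 and 19.7-fold for mt-Rnr2. The highest exposed libraries were replicate 8 in mt-Rnr1 (18.8 CPM) and replicates 9 and 8 in mt-Rnr2 (33.7 and 22.4 CPM), all with Brx68. Replicate 7 had no count in either gene and replicate 6 none in mt-Rnr2, where 0 counts allow up to 0.391 and 0.343 CPM. By line, the medians of mt-Rnr1 were 1.72 CPM with Brx07 (n = 2), 3.94 with Brx50 (n = 4) and 2.62 with Brx68 (n = 7). The lines overlapped, with ranges of 0.901 to 2.54, 0.343 to 5.75 and 0 to 18.8 CPM in the same order.

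The log2 fold change was -5.66 for mt-Rnr1 (SE 0.88, edgeR adjusted p = 0.11, unadjusted p = 6.2e-06) and -4.19 for mt-Rnr2 (SE 1.04, adjusted p = 0.97, unadjusted p = 0.00087). None of the 11 members was called and 0% of all 18278 genes tested, of which 458, 2 members among them, had an unadjusted p under 0.05. DESeq2 called both rRNAs lower in exposed bone (adjusted p = 0.00012 and 0.049), and 0.0545% of its 31191 genes, which were not filtered on low counts beforehand. Limma-voom with quality weights also called both (adjusted p = 5.1e-06 and 0.000815), and 15.7% of all genes. Without replicate 8 edgeR called mt-Rnr1 (-6.38, adjusted p = 0.0019), and 0.011% of all genes. In the fit of all 30 libraries the difference between the bone and lung responses was -7.25 for mt-Rnr1 (SE 2.10, unadjusted p = 0.0018) and -6.21 for mt-Rnr2 (SE 2.22, unadjusted p = 0.0094). It was not called for either, and 0% of 21233 genes were (237 genes and 2 members at an unadjusted p under 0.05). DESeq2 called it for mt-Rnr1 (adjusted p = 0.029), with 0.0302% of all genes, and limma-voom for both (adjusted p = 0.0033 and 0.021), with 1.5%.

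**Figure D4:**
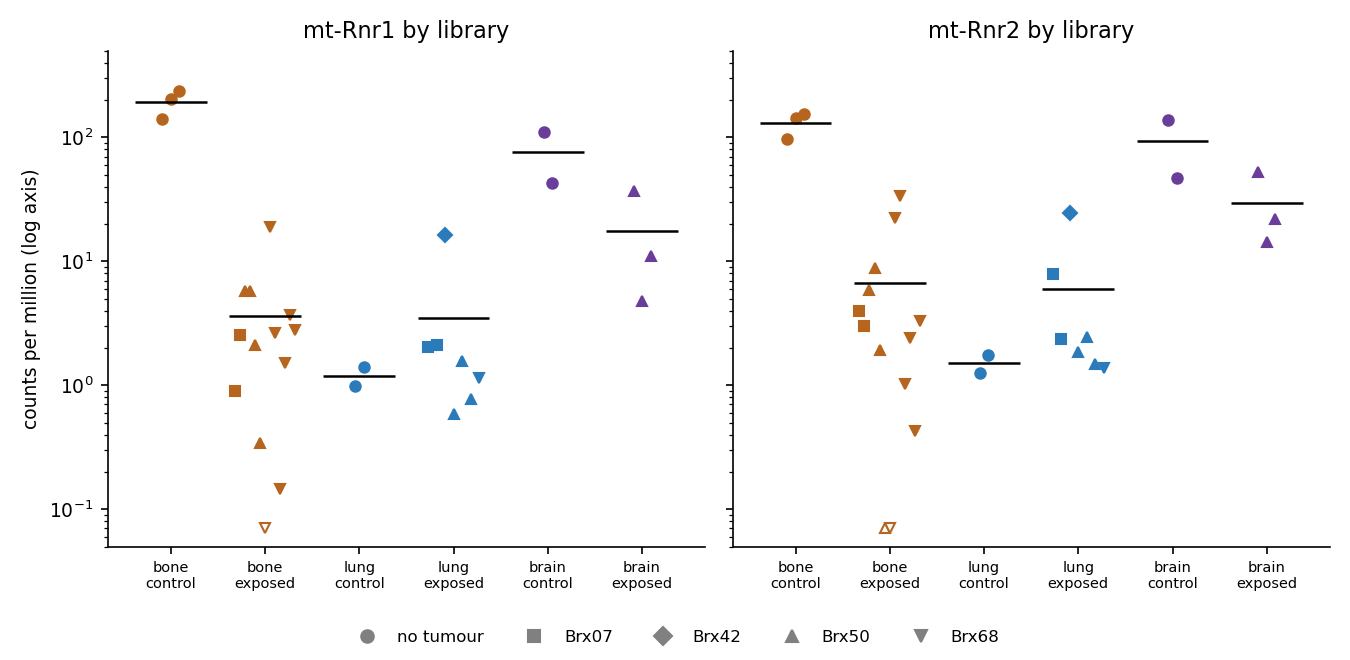
CPM of mt-Rnr1 (left) and mt-Rnr2 (right) in each of the 30 libraries on a log axis, by group, with the mean of each group as a line and the tumour cell line as the symbol. Open symbols at the bottom are libraries with 0 counts. The 3 bone controls lie at 97.7 CPM or above, and all 13 exposed bone libraries lie at 33.7 or below.

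Set against the mRNAs of the same library, the rRNAs were highest in the bone controls. The bone controls had 54.1, 74.4 and 81.5 rRNA counts per 1000 mt-mRNA counts. Exposed bone had 0 to 3.70 with a median of 0.647, the lung controls 0.521 and 0.702, exposed lung 0.672 to 6.93, the brain controls 4.85 and 1.92, and exposed brain 1.04 to 2.05. The lowest bone control was thus above every other library. The ratio of mt-Rnr1 to mt-Rnr2 counts was 1.47 ± 0.0538 in the bone controls (n = 3). It was 0.851 ± 0.0826 in the brain controls (n = 2). In the lung controls it was 0.788 ± 0.00266 (n = 2), at 0.986 to 1.77 CPM of either rRNA.

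A nuclear ribosomal locus moved with the rRNAs in part. Gm42418, which RefSeq lists as a synonym of the 18S pseudogene Rn18s-rs5, was chosen after its values were seen. It had 35.1, 42.5 and 23.0 CPM in the bone controls, 47.6 in exposed bone replicate 8 and 24.1 in exposed lung replicate 3. In the other exposed bone libraries it did not pass 0.450 CPM, and in the brain controls it had 1.12 and 0.133. The 2 exposed libraries with a high Gm42418 were also the highest of their tissue in mt-Rnr1, whereas exposed bone replicate 9 had 33.7 CPM of mt-Rnr2 with 0.320 of Gm42418. In the brain controls mt-Rnr1 was at 43.0 CPM or more with little Gm42418. The marker differences given above for exposed bone lie between the same groups as the rRNA difference, and their part in it was not tested. In bulk libraries fewer cells of a type and less RNA per cell cannot be told apart. The sample labels name no batch, so a batch shared by the controls cannot be told apart from exposure.

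The mRNAs of exposed bone spread widely around tight controls. Their sum was 4420, 4671 and 4799 CPM in the controls and ran from 1554 to 38793 in the exposed libraries, with a median of 8735. The exposed libraries thus reached both below and above the tight controls. Replicate 3 (Brx50) was highest at 38793 CPM and replicate 6 (also Brx50) lowest at 1554, and replicates 7, 11 and 8 (Brx68) followed the highest at 11391, 11349 and 11202. Mt-Co1 ran from 531 to 15176 CPM with a median of 3152, against 1620, 1620 and 1727 in the controls. Mt-Nd1, mt-Nd2, mt-Co1, mt-Nd4 and mt-Nd5 each lay above all 3 controls in 11 of 13 libraries, mt-Cytb in 10 and mt-Nd6 in 7.

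No mRNA was called in exposed bone, by edgeR, DESeq2 or limma-voom. The fitted log2 fold changes were 1.22 for mt-Nd1 (SE 0.71), 1.197 for mt-Nd2 (SE 0.75), 1.196 for mt-Co1 (SE 0.71), 1.14 for mt-Nd4 (SE 0.71), 0.98 for mt-Cytb (SE 0.67), 0.91 for mt-Nd5 (SE 0.66) and 0.75 for mt-Nd6 (SE 0.85), all with an edgeR adjusted p of 0.97. The median over the 11 members was 0.98 and over all genes tested 0.08. Without replicate 3 the members' median was 0.61. Replicate 3 also had the highest sum of the fibroblast markers, 67788 CPM against 10924 to 20728 in the controls, and 23.7 CPM of the bone markers. Replicate 12, with 4499 CPM of the skeletal muscle markers against 133 to 138 in the controls, had an mt-mRNA sum of 6348. Over all 13 exposed libraries the muscle markers ran from 73.8 to 4499 CPM. The brown fat markers Ucp1, Cidea, Elovl3, Ppara and Cox8b ran from 2.10 to 98.2 CPM, against 3.29 to 3.42 in the controls. The muscle and the brown fat list each lay above all 3 controls in 11 of 13 exposed bone libraries and below them in 2. Whether these were the libraries with high mRNAs was not compared. The macrophage markers were above the controls in 9 and below in 4, and the cardiac muscle markers in 9 and 2. The brain and the epithelium markers were each above in 8 and below in 5. The part of these markers in the levels was not tested.

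**Figure D5:**
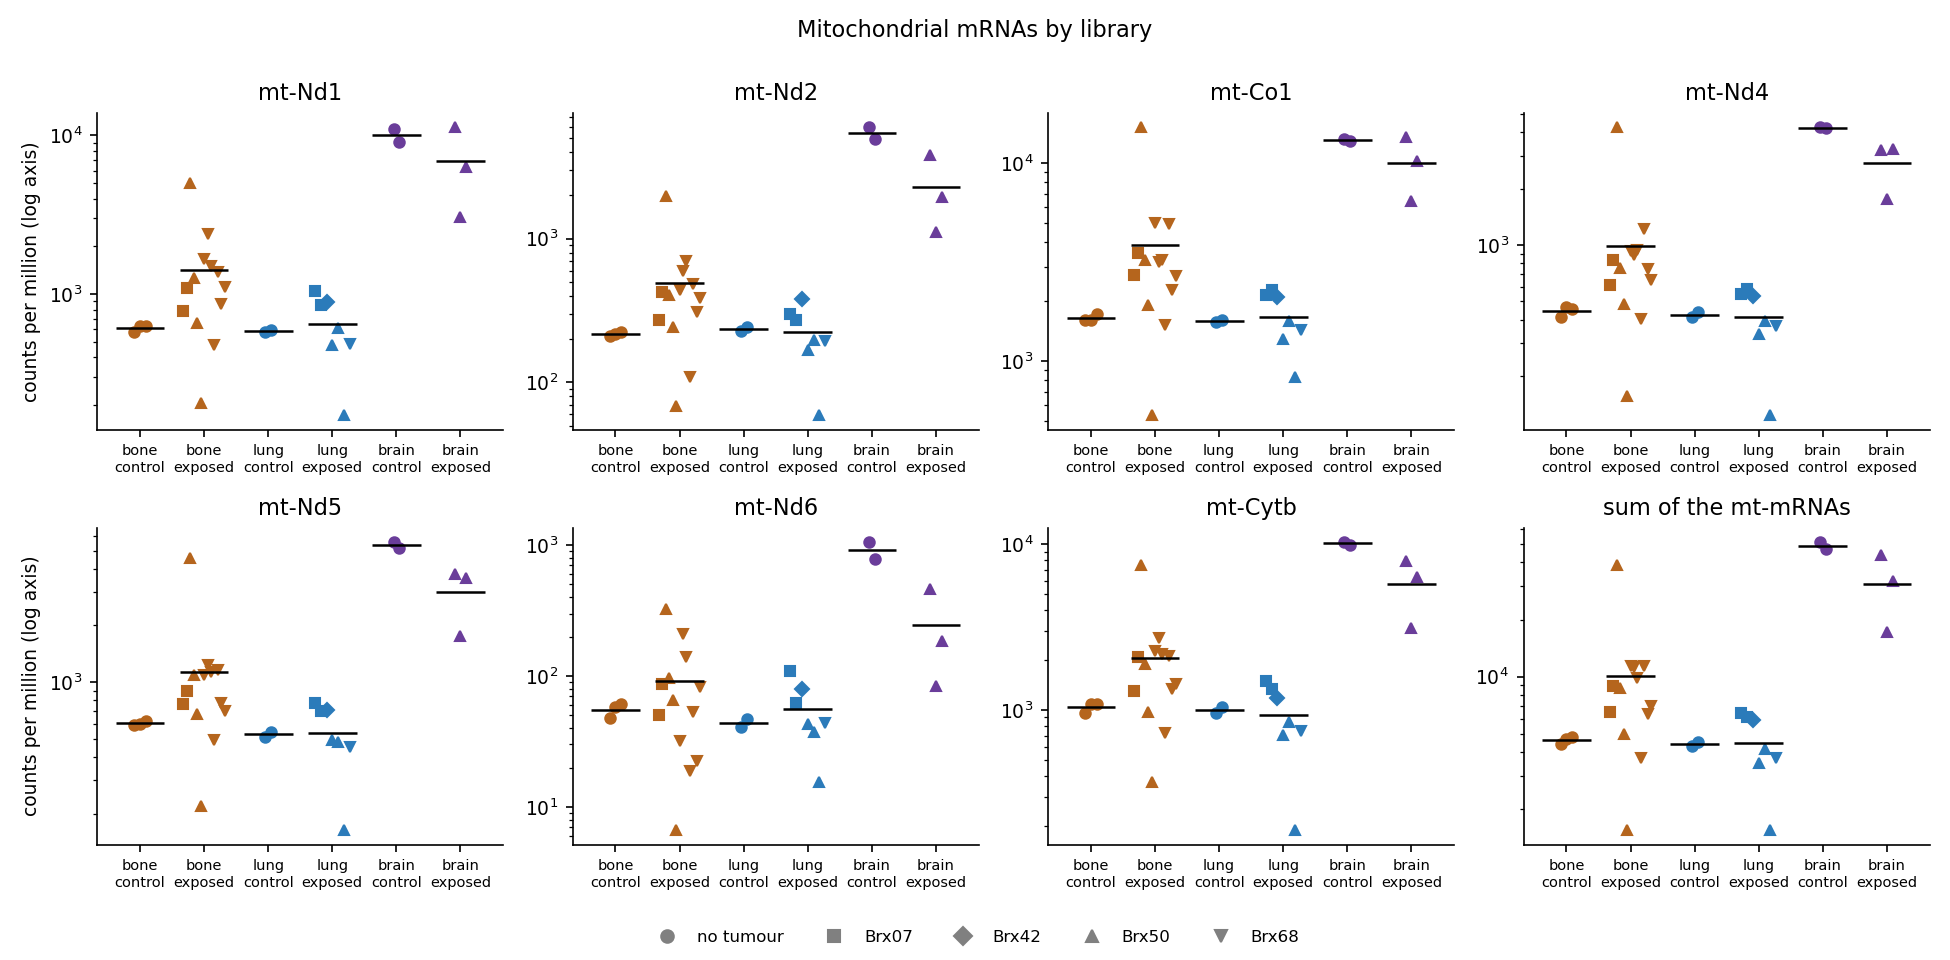
CPM of the 7 counted mitochondrial mRNAs and of their sum in each of the 30 libraries on log axes, by group, with the mean of each group as a line and the tumour cell line as the symbol. The sums lie at 47011 and 51270 in the brain controls, at 17291 to 43873 in exposed brain, and at 4297 to 4799 in the bone and lung controls.

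The counted tRNAs were low in all bone libraries. Mt-Tc ran from 0 to 6.65 CPM with a median of 1.45, against 0.648 to 1.31 in the controls, and mt-Tp from 0 to 5.61 with a median of 1.85, against 0.847 to 2.39. Neither was called.

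The lines Brx68 and Brx50 could be compared in exposed bone, with 7 and 4 libraries. None of the 11 members was called, by edgeR, DESeq2 or limma-voom, and 0% of 16628 genes were by edgeR, 0.292% by DESeq2 and 0% by limma-voom (edgeR gave 657 genes and none of the members at an unadjusted p under 0.05). The sum of the mRNAs was 9836 CPM at the median with Brx68 (3748 to 11391) and 6873 with Brx50 (1554 to 38793), so the Brx50 libraries enclosed all those of Brx68. The fitted log2 fold changes of the 7 mRNAs were all negative, from -0.79 to -0.39 with a median of -0.63. The median turned to 0.81 without replicate 3 and to 0.45 with limma-voom.

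In brain most mRNAs had lower levels in the exposed libraries, and the main test called none of them. Their sum was 51270 and 47011 CPM in the controls and 43873, 17291 and 31787 in the exposed replicates 1, 2 and 3. Mt-Nd2 had 3800, 1121 and 1957 CPM in those replicates against 5976 and 4956 in the controls. Mt-Nd6 had 462, 84.0 and 185 CPM against 1055 and 787. Mt-Nd2, mt-Nd4, mt-Nd5, mt-Nd6 and mt-Cytb did not overlap between the groups, with all 3 exposed libraries below both controls, as was the case for 18.6% of all genes tested, while 19.9% had all 3 above. For mt-Nd1 and mt-Co1 the exposed replicate 1 (11255 and 13571 CPM) lay above both controls.

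Of all 16734 genes tested in brain 0.00598% were called, or 1 gene, and 0 of the 11 members. An unadjusted p under 0.05 was reached by 2272 genes and 3 members. The log2 fold changes were -1.95 for mt-Nd6 (SE 0.68, edgeR adjusted p = 0.32, unadjusted p = 0.025), -1.29 for mt-Nd2 (SE 0.57, adjusted p = 0.39), and between -0.87 and -0.42 for the other 5 mRNAs. The median over the 11 members was -0.87 and over all genes tested 0.03. DESeq2 called mt-Nd6 (-1.97, adjusted p = 0.034), with 2.5% of all genes, and limma-voom called mt-Nd6 (-2.27, adjusted p = 0.010) and mt-Nd2 (-1.45, adjusted p = 0.028), with 5.37%. The share of mt-Nd6 in the mt-mRNA counts was 2.06% and 1.67% in the controls and 1.05%, 0.486% and 0.584% in the exposed libraries. Mt-Nd1 held a similar share in both groups, 20.3 ± 1.38% (n = 2) and 21.03 ± 4.13% (n = 3), and mt-Nd2 11.1 ± 0.788% and 7.10 ± 1.36%.

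The rRNAs of exposed brain also had lower means and were not called. Mt-Rnr1 had 37.1, 4.75 and 11.1 CPM against 110 and 43.0 (log2 fold change -2.18, SE 0.84, edgeR adjusted p = 0.34). Mt-Rnr2 had 52.9, 14.4 and 22.02 CPM against 139 and 47.3 (-1.70, SE 0.66, adjusted p = 0.35), and here the groups overlapped. With 1 library left out, the fitted value ran from -3.36 to -1.34 for mt-Rnr1 and from -2.43 to -0.72 for mt-Rnr2. Mt-Tc had 52.2, 0.826 and 10.6 CPM against 55.3 and 19.7, and mt-Tp 27.0, 13.8 and 8.24 against 9.57 and 11.7. The tRNA mt-Tp was thus the only member with a positive fitted value in brain (0.57, SE 0.56). Its sign turned with limma-voom (-0.10) and without exposed replicate 1 (-0.023).

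Markers of cell types also differed between exposed and control brain. The neuron markers Snap25, Syt1, Rbfox3, Stmn2 and Gap43 summed to 2610 and 2037 CPM in the controls and to 1618, 400 and 1253 in exposed replicates 1, 2 and 3, the same order as the mt-mRNA sums. The macrophage markers C1qa, C1qb, C1qc, Csf1r and Cd68 summed to 333 and 523 CPM in the controls and 1870, 2324 and 1095 in the exposed libraries. Among the exposed libraries these macrophage sums had neither the order of the mt-mRNA sums nor its reverse. An order of 3 libraries says little. The neutrophil, fibroblast, epithelium and cardiac muscle markers also lay above both controls in all 3 exposed libraries. The fibroblast markers, for example, ran from 147 to 1747 CPM against 72.6 and 84.7. Gm26917, a noncoding RNA listed with Malat1 and Neat1 among signs of RNA quality, had 10669 and 14248 CPM in the controls and 23216, 41818 and 24847 in the exposed libraries. Malat1 itself had 18002 and 16992 CPM in the controls and 16824, 17533 and 13015 in the exposed libraries. The 4 genes of that list summed to 41617 and 43608 CPM in the controls and to 71259, 67423 and 51929 in the exposed libraries, all 3 above the controls. The part of these genes in the mitochondrial levels was not tested.

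In lung the mRNAs of exposed and control libraries overlapped. Their sum was 4297 and 4504 CPM in the controls and ran from 1549 to 6437 in the 7 exposed libraries with a median of 4154, so the controls lay inside the exposed range. The exposed libraries with Brx07 and Brx42 had 5876 to 6437 CPM and lay above both controls, and those with Brx50 and Brx68 had 1549 to 4154 and lay below them. The 7 mRNAs had a median log2 fold change of 0.07, and 0 of the 11 members was called by edgeR, DESeq2 or limma-voom, and 0% of 17132 genes by edgeR, 0.00701% by DESeq2 and 0.00584% by limma-voom (by edgeR 118 genes and none of the members had an unadjusted p under 0.05). Replicate 6 (Brx50) was the lowest in all 7 mRNAs, with 172 CPM of mt-Nd1 and 15.5 of mt-Nd6. In it mt-Co1 held 53.5% of the mt-mRNA counts and mt-Cytb 12.1%, against 35.7% to 36.6% and 22.1% to 23.0% in the controls. The rRNAs were low in all lung libraries, at 0.587 to 2.12 CPM of mt-Rnr1 in 6 of the 7 exposed ones, and replicate 3 (Brx42) had 16.4. Exposed libraries lay above both controls in 4 of 7 for mt-Rnr1, with 2 below. For mt-Rnr2 5 of 7 lay above and 0 below, at 1.37 to 24.4 CPM against 1.25 and 1.77. The fitted log2 fold changes were 1.61 for mt-Rnr1 (SE 1.34) and 2.04 for mt-Rnr2 (SE 1.31). Marker sums varied in exposed lung as well. The fibroblast markers ran from 233 to 41804 CPM, against 1613 and 1891 in the controls, with 4 libraries below and 3 above. Their part in the mitochondrial levels was not tested.

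The difference between the responses of bone and brain was largest for mt-Nd6 (2.78, SE 1.27) and mt-Nd2 (2.56, SE 1.07), with unadjusted p of 0.037 and 0.024, and for mt-Rnr1 in the other direction (-3.41, SE 1.84). None was called between bone and brain (adjusted p of 0.594, 0.575 and 0.617, 0% of 21233 genes) or between lung and brain (0%). At an unadjusted p under 0.05 there were 1771 genes and 2 members for bone and brain, and 838 genes and none of the members for lung and brain. Limma-voom called 4 members between bone and brain, 2 in each direction, among them both rRNAs (adjusted p = 0.023 and 0.049), with 7.75% of all genes. Between lung and brain it called 1 member, with 2.14% of all genes. DESeq2 called none of the members in either, with 0.29% and 0.0605% of all genes.

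Several Brx50 libraries of different tissues carry the same code. With the code 83.2, mt-Co1 had 3239 CPM in bone, 10181 in brain and 828.6 in lung, and mt-Rnr1 had 5.74, 11.1 and 0.776. With 48.1, mt-Co1 had 13571 CPM in brain and 1588 in lung, and with 84.2, 1915 in bone and 1297 in lung. Under each of these codes mt-Co1 was lowest in lung. Whether a shared code means 1 mouse is not stated.

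The nuclear genes that serve the mitochondrial genome were taken from lists of its transcription and replication factors, RNA processing factors, regulators of mitochondrial biogenesis, respiratory subunits and mitoribosomal proteins. No gene of these lists was called in exposed bone, lung or brain, in the differences between tissues or between lines. An unadjusted p under 0.05 was reached by 1 of 208 list genes in exposed bone, 2 of 205 in exposed lung and 7 of 203 in exposed brain. These are 0.481%, 0.976% and 3.45% of the lists, against 2.51%, 0.689% and 13.6% of all genes. In exposed bone, where the fitted mt-mRNAs were above 0, the median log2 fold changes of the lists lay between -0.09 (complex II) and 0.08 (nuclear complex IV), against 0.08 for all genes. Polg, the mitochondrial DNA polymerase, had 116 ± 4.84 CPM in the bone controls and 89.0 ± 21.3 in exposed bone, Polrmt, the mitochondrial RNA polymerase, 18.8 ± 1.48 and 20.3 ± 7.05. In exposed brain the lists' medians lay between -0.18 (complexes II and V) and 0.08 (transcription and replication). Atp5b, the beta subunit of ATP synthase, had 523 CPM in the brain controls and 507 in exposed brain, and Lrpprc, which stabilises mitochondrial mRNAs, 91.0 and 79.8.

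Between the control tissues the nuclear subunits differed by much less than the mitochondrial ones. Of all genes tested, 34.6% were higher and 37.4% lower in lung than in brain, and 37% were higher and 38.9% lower in bone than in brain. Of 35 nuclear complex I subunits tested, 22 were lower and 2 higher in lung than in brain (62.9% and 5.71%), with a median log2 fold change of -0.61, and 18 were lower and 3 higher in bone (51.4% and 8.57%), with -0.31. Ndufb9 had 111 CPM in brain, 38.9 in bone and 25.8 in lung, and Ndufa5 41.3, 12.5 and 9.80. Of 14 complex IV subunits 10 were lower and 1 higher in lung, and 10 lower and 2 higher in bone, with medians of -0.80 and -0.48. Cox6c had 93.8 CPM in brain, 39.5 in bone and 31.1 in lung. Cox4i2, an isoform found mainly in lung, was higher in both, with 0.839 CPM in brain, 3.79 in bone and 7.45 in lung, and Cox5a was higher in bone, with 19.5 CPM in brain and 23.9 in bone.

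Complexes II, III and V had other counts. Of 15 complex V subunits 7 were lower and 0 higher in lung, but 3 lower and 2 higher in bone, with medians of -0.35 and 0.01. Of 9 complex III subunits 3 were lower and 0 higher in lung, and 2 lower and 3 higher in bone, with medians of -0.19 and 0.13. These shares in bone were below the share of all genes called there, 75.8%. Complex II has no mitochondrially encoded subunit. Of its 4 subunits Sdha was lower in both tissues, with 247 CPM in brain, 129 in bone and 126 in lung. Sdhb was higher in both, with 43.1 CPM in brain, 48.4 in bone and 52.9 in lung, and Sdhd was higher in bone, with 31.4 CPM in brain and 41.7 in bone. The medians of complex II were 0.08 in lung and 0.20 in bone. For mt-Nd2 and mt-Nd1 the same comparisons gave -4.36 and -3.92 in lung and -4.52 and -3.88 in bone.

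The regulators and the ribosomal proteins had mixed directions. Ppargc1a and Ppargc1b, coactivators that drive mitochondrial biogenesis, had 88.7 and 49.0 CPM in brain, 4.20 and 9.50 in bone and 6.56 and 5.38 in lung (bone against brain -4.24, SE 0.20, and -2.22, SE 0.16). Pprc1, their relative, went the other way with 34.4 CPM in brain, 106 in bone and 96.1 in lung. In all, 5 of 11 regulators were higher and 5 lower in bone than in brain (45.5% each). Among the transcription and replication factors 8 of 17 were lower and 2 higher in lung than in brain (47.1% and 11.8%): Tfam, which packs and activates mitochondrial DNA, had 31.6 CPM in brain and 14.2 in lung, and Polg2, a subunit of the DNA polymerase, 6.16 and 29.5. Of the RNA processing factors, Lrpprc had 91.0 CPM in brain, 48.5 in bone and 40.1 in lung, and Pde12, which trims poly(A) tails in mitochondria, 20.4, 69.7 and 73.8. Between bone and lung controls, where the rRNAs differed by 7.31 and 6.41 on the log2 scale, the proteins of the small mitoribosomal subunit had a median of 0.24 with 3 higher and 1 lower of 29, and those of the large one 0.21 with 10 higher and 0 lower of 47. These are 10.3% and 21.3% higher, where 22.5% of all genes tested were higher and 22.3% lower in bone.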

How the data were processed

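The deposited file holds raw counts by Ensembl mouse gene for the 30 libraries. The submitters' processing notes name the aligner STAR (2.5.2b) and the counter HTSeq, and list mouse (mm10, GRCm38.p5) and human (hg19, GRCh37) builds. The roles of these builds, the annotation, the strand setting and the handling of human reads and of reads with several places are not stated. Symbols, coordinates and sequences are from GENCODE M21, and 42462 of 43346 identifiers had a symbol. The 884 without one held 0.132% of the counts.

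Members are the rows whose symbol starts with mt-. The members and the nuclear lists were chosen with earlier results of these data known. Counts were tested with edgeR 4.0.16 (TMM scaling, filterByExpr, robust quasi-likelihood F-test, adjusted p under 0.05), with 1 fit per tissue for exposure, 1 of all 30 libraries for differences between tissues, 1 of the 7 controls and 1 of the Brx68 and Brx50 bone libraries. The fits were tested on simulated data. CPM are counts scaled to a library total of 1000000. Alternatives were RLE scaling, scaling without the mt- genes, no low count filter, DESeq2 1.42.0, limma 3.58.1 (voom with quality weights), each library left out, the 2 exposed bone libraries with the fewest genes or the 1 with the most mt-mRNA left out (both chosen after seeing the data) and, for the controls, the replicate number as a block. Named genes were all mt- rRNAs and mRNAs, the tRNAs called anywhere or among the 6 highest, and from each nuclear list and comparison up to 2 higher and 2 lower called genes by smallest p, or the 2 of highest mean CPM. Pseudogenes are named as sequence matches. Alignments of pseudogenes used Biopython 1.88. Intervals for counts of 0 cover counting error only.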

Additional observations from a re-analysis of the deposited data

Results flagged for a closer look

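Exposed lung replicate 3, the only library with the line Brx42, lay far from the other 6 exposed lung libraries in mt-Rnr1 (16.4 CPM), mt-Rnr2 (24.4 CPM), their sum (40.7 CPM) and mt-Tc (6.57 CPM). The next highest values were 2.12, 7.89, 9.92 and 2.09 CPM in the same order. Of 13 sets of values tested in this way 4 had such a library. All 13 sets were of the exposed lung libraries. Exposed bone and the other groups had numbers of libraries that the screen does not cover. The screen's rate of about 1 in 20 holds for normally distributed values, which was not checked for these CPM. The 4 are not independent, since all are from 1 library and the sum repeats its parts. The line and the library cannot be told apart.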

How the results depend on the processing

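Calls among the mt- genes were compared with those of edgeR under each alternative. With DESeq2 2 members were called in exposed bone, 1 in exposed brain and 1 in the bone against lung difference of responses. With limma-voom the numbers were 2, 2 and 2, with 4 in the bone against brain difference and 1 in the lung against brain one (2.14% of all genes there). Leaving out 1 library moved the count in exposed bone between 0 and 1 (exposed bone replicate 8). All other counts stayed within 1.5 times, and rescaling with RLE or without the mt- genes changed none. Values of single genes that were not called turned sign in 8 cases, 7 of them with 1 library left out. In exposed brain, mt-Tp was -0.10 with limma-voom and ran from -0.023 (without exposed replicate 1) to 0.86 with 1 library left out, and mt-Tc from -2.82 to 0.057 (without control replicate 1). In bone against lung controls the ranges were -0.15 to 0.55 for mt-Tp, -0.30 to 1.38 for mt-Tc, -0.0044 to 0.076 for mt-Nd1, -0.010 to 0.11 for mt-Nd4 and -0.0087 to 0.11 for mt-Cytb. The cause was not tested. Control libraries of different tissues with the same number had correlations from -0.09 to 0.02. That check cannot exclude a pairing, since in groups of 2 libraries the deviations from the mean mirror each other. Titles and column names also number the brain controls differently, and the title numbers were used here and for the replicate block. With the replicate block 9 members were called between bone and brain controls against 10 without it, since mt-Rnr1 was lost (adjusted p = 0.080). The block gave 2 calls for bone against lung and 11 for lung against brain, as without it. Mt-Rnr1 was also not called there without a low count filter (adjusted p = 0.065), and mt-Rnr2 was called with limma-voom (adjusted p = 0.028) and without brain control replicate 1 (0.00079). Without the 2 exposed bone libraries with the fewest genes, chosen after seeing the data, mt-Rnr1 was at -5.54 (adjusted p = 0.24), and without the 1 with the highest mt-mRNA share at -5.73 (adjusted p = 0.25). Groups of 2 or 3 controls limit every comparison with controls.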
